A study of Mus musculus with 12 samples.

Results

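Amino acid transporters of the solute carrier families Slc1, Slc3, Slc6, Slc7, Slc36, Slc38 and Slc43 were followed in mouse embryonic stem cells, in RNA bound to ribosomes labelled at the endoplasmic reticulum (ER) and in whole-cell RNA. The members were chosen by name: a protein-coding gene whose symbol starts with Slc1a, Slc3a, Slc6a, Slc7a, Slc36a, Slc38a or Slc43a. This gave 64 of the 55416 genes in the count files, of which 50 were among the 17702 genes with enough reads to test. By family, 5 of 7 Slc1, 2 of 2 Slc3, 16 of 21 Slc6, 12 of 16 Slc7, 2 of 4 Slc36, 10 of 11 Slc38 and 3 of 3 Slc43 genes could be tested. The other 14 stayed at or under 0.312 CPM (reads of a gene scaled by library size) in each library, and Slc6a18 and Slc7a12 had no read in any library. Slc7a6os entered by its name alone: its protein of 306 residues had no hydrophobic stretch, unlike the 49 tested transporters.

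The cells were the line Rpl31-FTA E14Tg2a.4, in which the ribosomal protein Rpl31 carries a FLAG, TEV and AviTag fusion. ALIBi, a biotinylation system of paired protein fragments targeted here to the ER, marked nearby tagged ribosomes, which were then purified with their RNA. An aliquot of the same lysate, set aside before purification, gave the whole-cell RNA. The siRNA was scramble, as control, or targeted Lsg1, which encodes a GTPase of late large-subunit ribosome assembly. Both fractions were sequenced for both siRNAs, which makes 4 groups of 3 biological replicates each, all of this 1 line. All groups shared the tagged ribosome, the labelling system and a medium with serum, leukemia inhibitory factor, L-glutamine and non-essential amino acids.

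Amino acid transporters are membrane proteins made by ribosomes on the ER. As background, a ribosome is brought there when the first hydrophobic stretch of the growing chain is bound by the signal recognition particle, and the protein then travels to the plasma membrane or to lysosomes. Several families work in pairs: exchangers such as Slc7a5 swap an amino acid inside for one outside, and sodium-coupled carriers such as Slc38a2 fill the pool from which exchangers draw. Light chains of the Slc7 family need a heavy chain, Slc3a2 or Slc3a1, to reach the surface.

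The first hydrophobic stretch found by computation is shown for the 3 transporters with the highest and the 3 with the lowest ER-bound against whole-cell fold. They were taken among those at a mean of 5 CPM or more, since they span the range described below. Whether these stretches bring the ribosome to the ER was not tested. Each line is the coding sequence, 5′ to 3′, of a window of 19 residues, read from GENCODE M21 transcripts (GRCm38). Among 19 successive starts from the first window with a mean Kyte-Doolittle hydropathy of at least 1.6, it had the highest mean. Capitals mark codons with T in the second position, which encode phenylalanine, leucine, isoleucine, methionine or valine.
Slc43a3: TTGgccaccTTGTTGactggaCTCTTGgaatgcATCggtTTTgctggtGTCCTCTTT
Slc3a2: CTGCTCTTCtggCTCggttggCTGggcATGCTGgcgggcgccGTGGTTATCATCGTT
Slc38a7: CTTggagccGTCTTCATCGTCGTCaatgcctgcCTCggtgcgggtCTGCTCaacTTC
Slc38a1: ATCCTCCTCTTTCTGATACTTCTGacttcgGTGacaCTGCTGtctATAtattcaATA
Slc38a10: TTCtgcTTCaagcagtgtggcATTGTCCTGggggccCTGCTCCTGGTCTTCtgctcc
Slc38a2: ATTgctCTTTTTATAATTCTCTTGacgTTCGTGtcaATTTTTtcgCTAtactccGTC
Slc43a3 lies on chromosome 2 and its stretch covers coding bases 28 to 84. Slc3a2 lies on chromosome 19 (coding bases 355 to 411), Slc38a7 on chromosome 8 (160 to 216) and Slc38a10 on chromosome 11 (85 to 141). Slc38a1 and Slc38a2 both lie on chromosome 15, and their stretches cover the same coding bases, 301 to 357. Of 19 codons, 13 had T in the second position in Slc38a1 and in Slc38a2, 12 in Slc3a2, and 10 in each of Slc43a3, Slc38a7 and Slc38a10. The counts of the 3 transporters with the highest folds thus lay within those of the 3 with the lowest. Over all 49 tested transporters, the number of residues before this stretch had a Spearman rho of -0.297 with the scramble fold and -0.272 with the Lsg1 fold, and the number of hydrophobic stretches had a rho of 0.0475 and -0.0788. Over the 26 with a mean of 5 CPM or more, the residues before the stretch had a rho of -0.185 (scramble) and -0.158 (Lsg1). The number of hydrophobic stretches had -0.15 and -0.25 there. These are descriptions across genes that share the same libraries.

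Libraries held 38092178 to 56522114 reads in genes. Lsg1 itself was at 143 to 151 CPM in ER-bound scramble libraries and 35.4 to 52.5 CPM with its siRNA, and at 136 to 149 against 83.5 to 114 CPM in whole-cell RNA. The 10 embryonic stem cell markers were present in all libraries, with a summed level of 8330 to 11442 CPM. Summed markers of fibroblasts or feeders were at 28.1 to 31.5 CPM in whole-cell and 49.2 to 60.4 CPM in ER-bound RNA, with 6 of 9 genes under 1 CPM. Primitive endoderm, trophoblast and neural markers summed to at most 9.15, 11.9 and 113 CPM. An unnamed gene took 18469 CPM in ER-bound scramble replicate 3 and 15604 CPM in the third whole-cell library with Lsg1 siRNA, against 1115 to 4143 CPM in the other 10. Leaving out both libraries gave 26 members higher and 2 lower in ER-bound scramble RNA.

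ER-bound scramble replicate 1 stood apart for the transporters. Summed over the members, its level was 3015 CPM, against 3392 and 3472 CPM in replicates 2 and 3, 3521 to 3650 CPM in ER-bound RNA with Lsg1 siRNA and 2739 to 2838 CPM in whole-cell RNA. Of 27 members at a mean of 5 CPM or more, 5 were lower there by at least 0.3 on the log2 scale than the mean of replicates 2 and 3, as were 3.83% of the 10646 genes at that level. The 5 were Slc38a1 (67.9% of the mean of the other 2 replicates), Slc38a2 (67.8%), Slc38a4 (72.8%), Slc38a6 (72.7%) and Slc7a6 (76.4%). In this library Slc3a2 was at 102% and Slc6a8 at 99.7% of the mean of replicates 2 and 3. The counts of called members below are given with and without this library where they changed.

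By length, the heavy chain Slc3a2 had the highest level, with a mean over the 12 libraries of 129 CPM per kb of exon, followed by Slc7a5 (116), Slc38a4 (67.5), Slc7a7 (58.6) and Slc7a3 (51.1 CPM per kb). Slc38a2, the creatine transporter Slc6a8 and the neutral amino acid exchanger Slc1a5 came next at 37.4, 32.6 and 32.3 CPM per kb. The taurine transporter Slc6a6 was at 14.9, Slc38a10 and the arginine and lysine transporter Slc7a1 were both at 13.6, and Slc7a6os was at 11.9 CPM per kb. The order of some neighbours depended on the fraction: Slc1a5 was above Slc6a8 in whole-cell scramble libraries, at 28.5 to 28.8 against 26.9 to 27.3 CPM per kb, while in the ER-bound ones both overlapped at 34.5 to 37.1 and 37 to 37.6 CPM per kb. Slc38a10 and Slc7a1 overlapped in ER-bound scramble libraries too, at 11.4 to 13.2 and 12.7 to 14.3 CPM per kb.

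**Figure D1:**
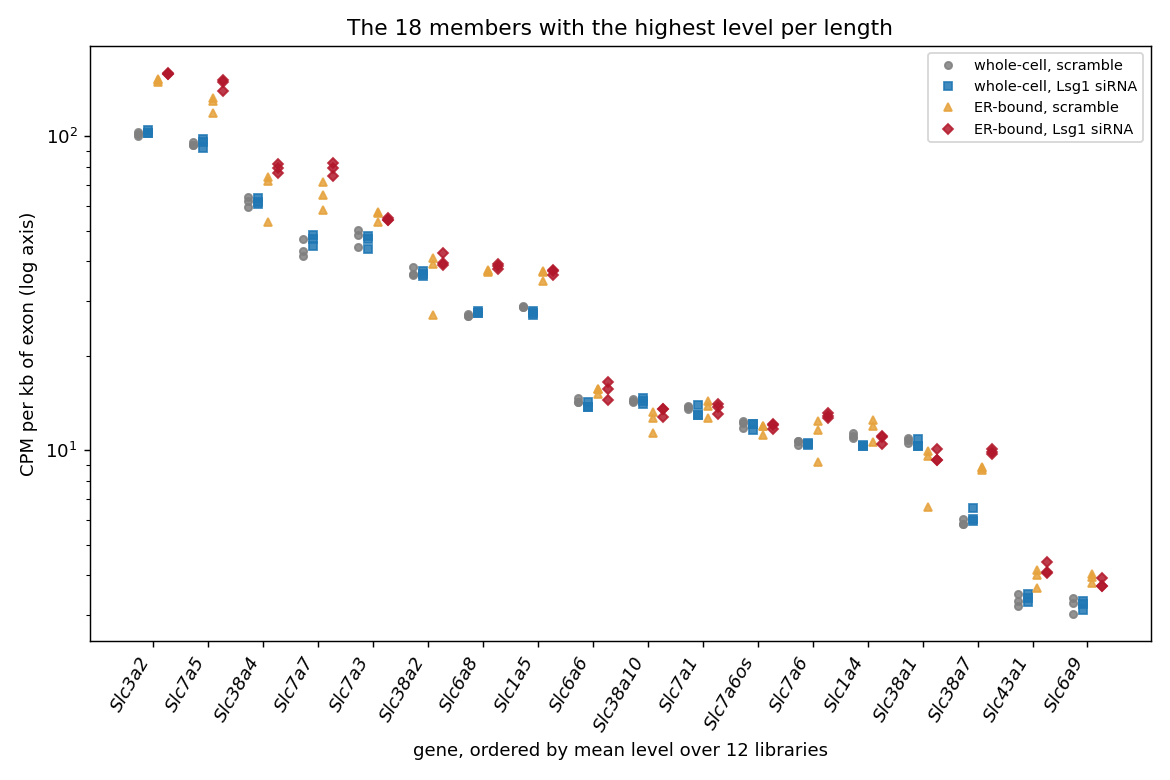
Level of the 18 members with the highest mean, in CPM per kb of exon on a log axis, with 1 point per library and 4 symbols for the groups. Slc3a2 and Slc7a5 are highest, and in Slc38a4, Slc38a2 and Slc38a1 1 ER-bound scramble point lies below the others.

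ER-bound RNA was first compared with whole-cell RNA in scramble cells, which asks which transporter transcripts had a larger share in the ER-bound RNA. Whole-cell RNA also holds RNA outside ribosomes, so ribosome binding and place at the ER cannot be told apart in this fold. At an adjusted p under 0.05 (edgeR quasi-likelihood test with Benjamini-Hochberg adjustment over all genes tested), 29 of 50 members were higher, 2 were lower and 19 were not called. Of all genes tested, 58.9% were called, 29.8% higher and 29.1% lower. The members' median log2 fold was 0.25, against 0.029 over all genes. Among other solute carriers outside the Slc25 family, 110 of 161 were higher with a median of 0.38. Among genes named Tmem, 159 of 203 were higher with a median of 0.57, and among the mostly mitochondrial Slc25 carriers 15 of 44 were higher with a median of 0.069. The log2 folds are relative to TMM scaling, under which 5279 genes were higher and 5143 lower. Scaled to library totals, the median of all genes moved to 0.11, 6438 genes were higher and 4144 lower, and 31 members were higher and 2 lower. Without ER-bound scramble replicate 1, 34 members were higher and 2 lower, with a median of 0.36. The calls gained were those of Slc1a4, Slc7a6, Slc38a2, Slc38a3, Slc38a4 and Slc38a5, and Slc6a20a lost its call.

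The heavy chain Slc3a2, known as CD98, was among the members with the clearest rise. It stood at 355, 359 and 365 CPM in whole-cell scramble libraries and at 539, 527 and 534 CPM in the ER-bound ones. The groups lay far apart and each was narrow. The log2 fold was 0.57 ± 0.024 (SE, n = 3 per group; edgeR adjusted p = 1.2e-12). Slc3a1, the heavy chain of kidney and gut, was near its floor at 0.215 to 0.45 CPM and was not called (log2 fold 0.093).

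Of 6 tested light chains, 4 were higher and none was lower. Slc7a5, which carries large neutral amino acids such as leucine, was at 347, 355 and 349 CPM in whole-cell and 439, 480 and 493 CPM in ER-bound scramble RNA. Its ER-bound values were all above the whole-cell ones, with a log2 fold of 0.43 ± 0.040 (edgeR adjusted p = 3.8e-08). Slc7a7, which exports arginine and lysine in exchange for neutral amino acids and sodium, was at 138, 143 and 156 against 193, 216 and 237 CPM (log2 fold 0.57 ± 0.060). Of its exon bases, 7% overlap Oxa1l on the other strand. Slc7a6, a close relative with the same kind of exchange, was at 47.4, 49 and 48.8 against 41.9, 53.1 and 56.6 CPM, so the groups overlapped and it was not called (0.061), but it was called without replicate 1 (0.17; edgeR adjusted p = 3.9e-04). Slc7a8 was higher at a low level (log2 fold 0.70), and so was Slc7a9, the partner of Slc3a1, which had 0.086 to 0.187 CPM in whole-cell and 0.221 to 0.472 CPM in ER-bound libraries (1.12 ± 0.34). The Slc7a9 call was lost when replicate 3 of either scramble group was left out (log2 fold down to 0.79, edgeR adjusted p up to 0.072). Slc7a11, the cystine and glutamate exchanger, was at 0.588, 0.293 and 0.408 against 0.282, 0.401 and 0.407 CPM and was not called; its log2 fold was -0.20, and 0.34 with an offset for GC content and length.

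The cationic carriers differed among themselves. Slc7a3 was at 168, 183 and 191 CPM in whole-cell and 202, 215 and 218 CPM in ER-bound scramble libraries, a log2 fold of 0.23 ± 0.044 with no overlap. Slc7a1, which also carries arginine and lysine, was at 156, 160 and 158 against 146, 165 and 160 CPM; its groups overlapped, with a log2 fold of -0.01 that became 0.068 with library totals and 0.31 with the GC and length offset. Slc7a2 was not called, but was called higher with the GC and length offset. The less studied relatives Slc7a4 and Slc7a14 were higher by 0.94 and 0.64 on the log2 scale at no more than 3.34 and 0.807 CPM in scramble libraries, and 13.3% of the Slc7a4 exon bases overlap P2rx6 on the other strand. The Slc7a14 call was lost without whole-cell scramble replicate 2 (edgeR adjusted p = 0.073).

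In the Slc1 family, 4 of 5 tested genes were higher. Slc1a5, a sodium-dependent exchanger of glutamine and other neutral amino acids, was at 119, 120 and 119 CPM in whole-cell and 144, 155 and 154 CPM in ER-bound RNA, a log2 fold of 0.34 ± 0.032. Its relative Slc1a4 was not called (0.072), but passed without replicate 1 (0.13; edgeR adjusted p = 0.0062). The glutamate transporters Slc1a3, Slc1a1 and Slc1a6 were higher by 0.17, 1.08 and 1.12 on the log2 scale. The Slc1a3 call was lost without whole-cell scramble replicate 1 (0.11; edgeR adjusted p = 0.082). Slc1a1 was at 1.63, 1.89 and 1.76 against 3.53, 4.11 and 3.71 CPM, and 31.9% of its exon bases overlap 4430402I18Rik on the other strand. Slc1a6 was at 0.776, 0.45 and 0.451 against 1.51, 1.16 and 1.05 CPM. Both groups were separate, at levels far under that of Slc1a5.

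In the Slc6 family of sodium- and chloride-coupled carriers, 9 of 16 tested genes were higher and none was lower. The creatine transporter Slc6a8 rose from 140, 142 and 140 to 194, 193 and 196 CPM, a log2 fold of 0.47 ± 0.027. The taurine transporter Slc6a6 changed less, from 124, 121 and 121 to 128, 133 and 133 CPM (0.11 ± 0.041; edgeR adjusted p = 0.033); its call was lost when any 1 of the scramble libraries other than ER-bound replicate 1 was left out. Slc6a13, a carrier of the transmitter GABA, was higher by 1.27 ± 0.26 on the log2 scale, at 0.15 to 0.18 against 0.363 to 0.582 CPM. Its log2 fold was the highest among the tested members. The glycine transporter Slc6a9 was higher by 0.28, and 27.8% of its exon bases overlap Ccdc24 on the other strand. Slc6a5, the other glycine transporter, had the lowest log2 fold of the members, -0.32 ± 0.39, but its 0.241, 0.248 and 0.645 CPM overlapped the ER-bound 0.121, 0.361 and 0.429 CPM and it was not called. Slc6a20a, called at 0.323 CPM or less in scramble libraries, has a close copy in Slc6a20b, and reads of the pair may have been split or lost. Its log2 fold of 1.00 (edgeR adjusted p = 0.039) was 0.73 without ER-bound scramble replicate 1 (adjusted p = 0.17), and the call was also lost without ER-bound scramble replicate 2, whole-cell scramble replicate 2 or 3, and with DESeq2.

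The Slc38 family held both called falls. Slc38a1, a sodium-coupled carrier of glutamine and other small neutral amino acids, was at 182, 186 and 189 CPM in whole-cell and 114, 165 and 171 CPM in ER-bound scramble RNA. All ER-bound values were lower, and the log2 fold was -0.31 ± 0.094 (edgeR adjusted p = 0.0098); it was -0.15 without replicate 1 (adjusted p = 0.0021) and turned to 0.062 with the GC and length offset (adjusted p = 0.52). Slc38a10 was at 92.2, 91.8 and 93.5 against 72.9, 81.3 and 84.9 CPM, a log2 fold of -0.22 ± 0.045, and it kept its sign and call under each of 24 alternatives. Slc38a2, a carrier with a similar range of substrates, was at 320, 323 and 339 against 239, 346 and 361 CPM, so that replicate 1 lay below and replicates 2 and 3 above the whole-cell range. Its log2 fold was -0.054, and 0.10 without replicate 1 (edgeR adjusted p = 0.03), 0.022 with library totals and 0.22 with the GC and length offset. Slc38a4 was at 254, 266 and 273 against 227, 308 and 316 CPM; it was not called (0.10), but passed without replicate 1 (0.23; edgeR adjusted p = 8.4e-06). Slc38a3 and Slc38a5, carriers of glutamine and histidine, moved in the same way, from 0.24 to 0.39 (adjusted p = 0.0066) and from 0.25 to 0.44 (adjusted p = 0.021). Among the members of this family with a place in lysosomes, Slc38a7 was at 24.2, 25.1 and 24.1 against 36, 36.6 and 36.4 CPM, a log2 fold of 0.57 ± 0.040, and Slc38a9, the arginine sensor of the mTORC1 pathway, was higher by 0.21. Slc38a8 was at 1.07, 0.991 and 1.07 against 2.16, 2.19 and 2.31 CPM, a log2 fold of 1.06 ± 0.14.

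Slc36a1, a proton-coupled carrier of lysosomes, and its relative Slc36a4 were both higher, by 0.25 and 0.38 on the log2 scale, the latter with an adjusted p of 0.06 (edgeR) when whole-cell scramble replicate 1 was left out. All 3 Slc43 genes were higher. Slc43a1 and Slc43a2 carry large neutral amino acids and had log2 folds of 0.24 and 0.43, and Slc43a3, which carries purine bases rather than amino acids, had 0.66 ± 0.090, from 7.14, 7.36 and 5.74 to 9.38, 11.6 and 11 CPM. Slc7a6os, which is no transporter, was at 51.4, 49.9 and 52.2 against 50.3, 47.3 and 50.3 CPM and was not called. Its log2 fold was -0.053, and 0.025 with library totals, and it was called lower with the GC and length offset.

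**Figure D2:**
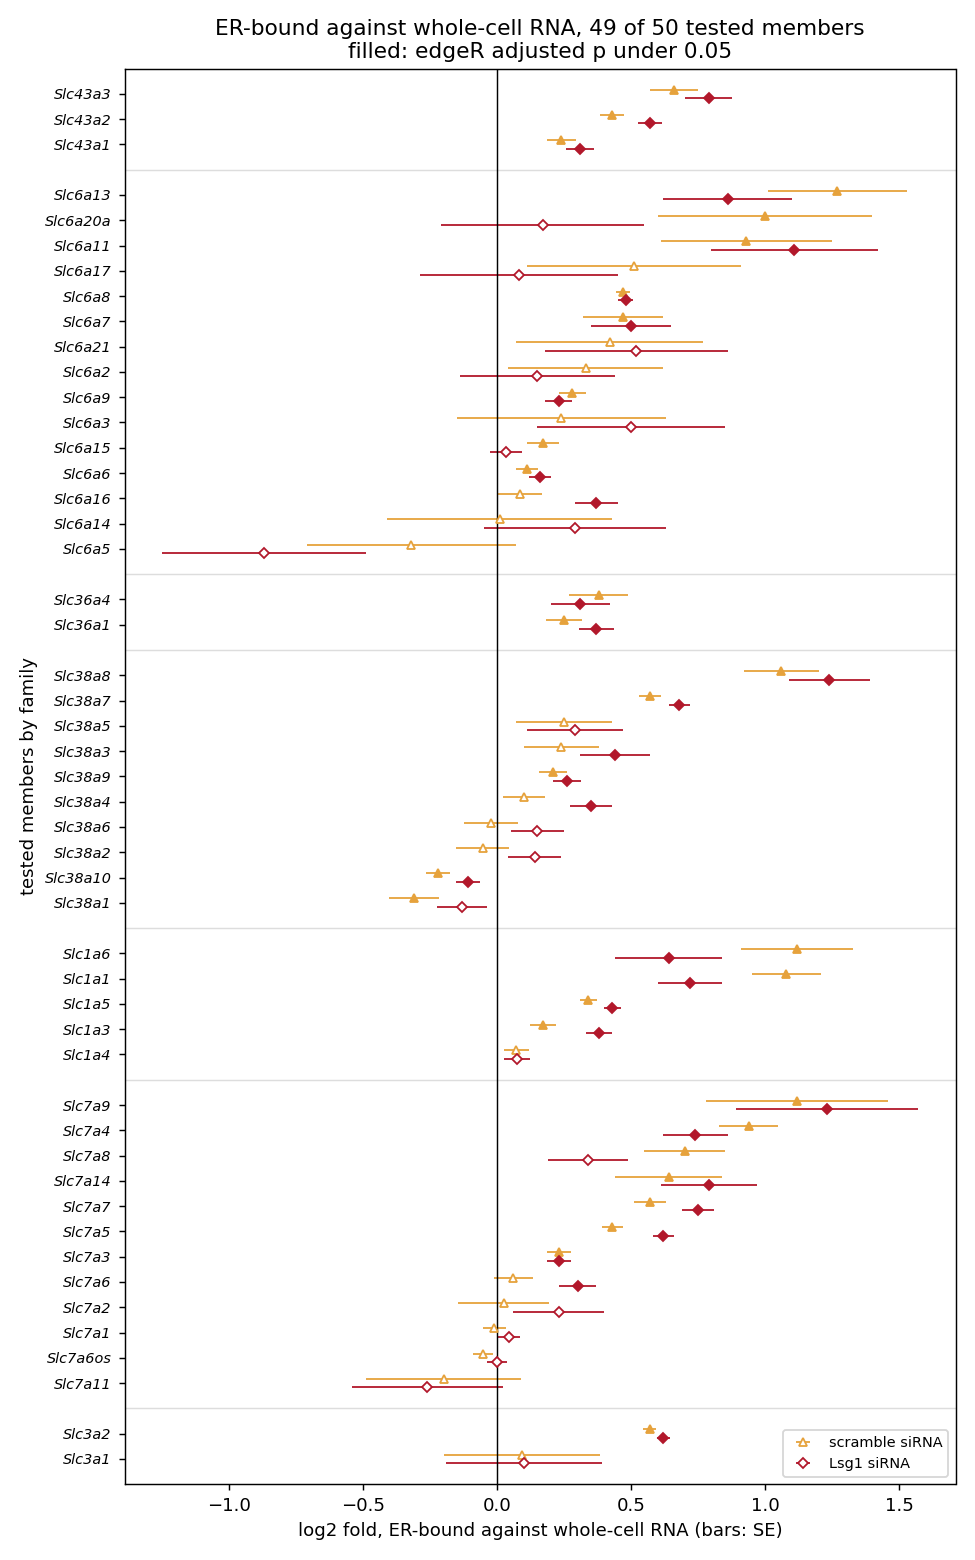
Log2 fold of ER-bound against whole-cell RNA for 49 of the 50 tested members by family, with scramble siRNA as triangles and Lsg1 siRNA as diamonds; bars are SE and filled symbols passed an adjusted p of 0.05. Most filled symbols lie to the right of 0, and in scramble cells 2, Slc38a1 and Slc38a10, to the left; Slc38a1 is at 0.062 with the GC and length offset.

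Longer transcripts had lower folds. Over the 49 tested transporters, Spearman's rho between transcript length and the log2 fold was -0.431 in scramble and -0.426 in Lsg1 siRNA cells, and -0.548 and -0.449 over the 26 with a mean of 5 CPM or more. GC content had a rho of 0.407 and 0.359 over the 49. The length after the stop codon had a rho of -0.346 with the scramble fold. These correlations are across genes of the same libraries. When each library was given an offset for GC content and length, 31 members were higher and 2 lower in scramble cells, with a median log2 fold of 0.32, against -0.027 over all genes. Under it, Slc7a1, Slc7a2 and Slc38a2 were called higher, and Slc38a1 and Slc6a7 were not called. The 2 lower members were Slc38a10 and Slc7a6os, which is no transporter. Slc38a9 moved from 0.21 to 0.69 and Slc43a2 from 0.43 to 0.72. What lies behind the relation with length was not tested.

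**Figure D3:**
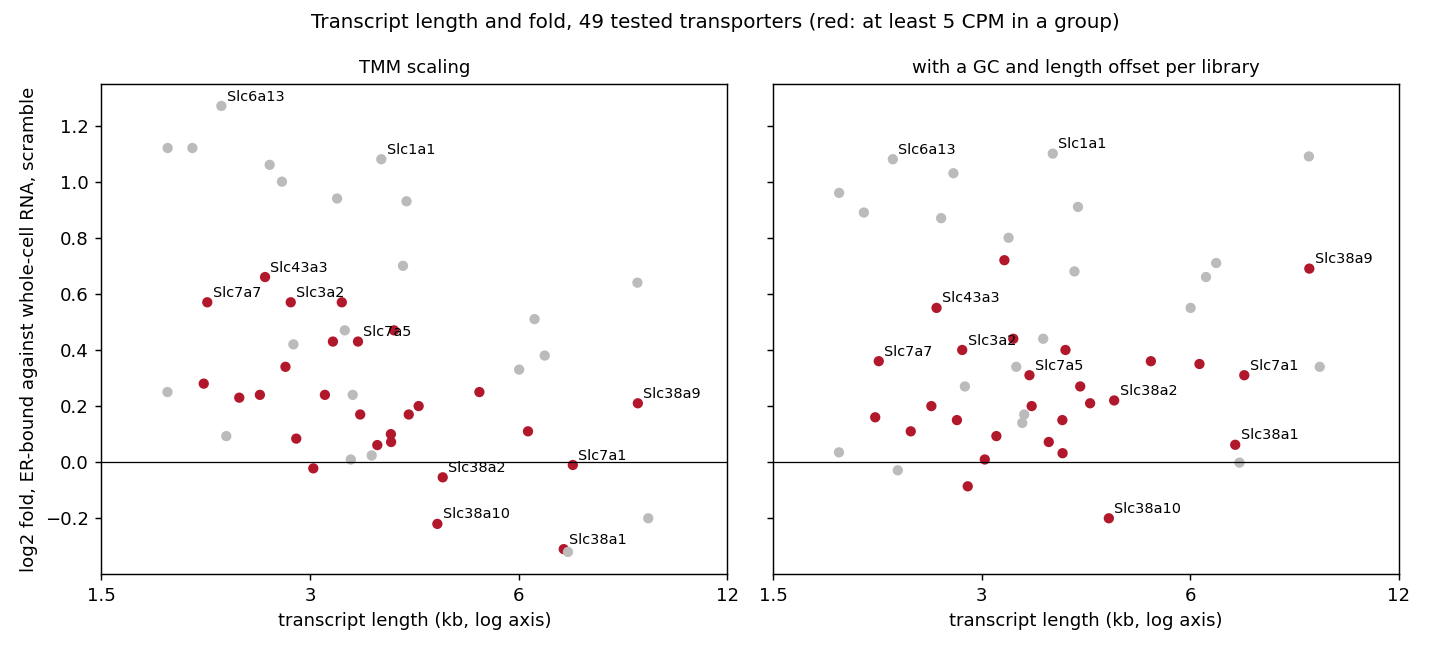
Log2 fold of ER-bound against whole-cell RNA in scramble cells by transcript length in kb (log axis), 1 point per tested transporter, under TMM scaling (left) and with a GC and length offset per library (right). Slc38a1 and Slc7a1, with long transcripts, lie at -0.31 and -0.01 on the left and at 0.062 and 0.31 on the right.

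The same comparison in cells with Lsg1 siRNA used the other 6 libraries. There 30 of 50 members were higher and 1, Slc38a10 (-0.11 ± 0.045; edgeR adjusted p = 0.044), was lower. Of all genes tested, 60.3% were called, 30.6% higher and 29.8% lower. The members' median log2 fold was 0.35, against 0.022 over all genes. Of other solute carriers outside the Slc25 family, 123 of 161 were higher with a median of 0.44. Tmem genes had 167 of 203 higher with a median of 0.66, and Slc25 carriers 18 of 44 with 0.053. The Slc38a10 call was lost with library totals (-0.022) and when ER-bound Lsg1 replicate 3 or whole-cell Lsg1 replicate 2 or 3 was left out. Without ER-bound scramble replicate 1, which enters this comparison only through the shared filter, scaling and spread, 32 of 51 members were higher and 3 lower. With each lysate as a block, 2 members were lower, Slc6a5 being the second, and the count of higher members was again 30. The sign was the same with both siRNAs in 47 of 50 members, 26 were higher with both, and 15 were called with neither. The matching shares over all genes were not counted, so these counts do not set the members apart from other genes. Slc6a15, Slc6a20a and Slc7a8 were called higher with scramble siRNA alone, and Slc38a3, Slc38a4, Slc6a16 and Slc7a6 with Lsg1 siRNA alone; in none of these 7 did the test of the difference pass in the fit described here. Slc3a2 was at 362, 363 and 371 CPM in whole-cell and 559, 562 and 557 CPM in ER-bound RNA of these cells (log2 fold 0.62 ± 0.024). Slc38a4 was at 272, 263 and 259 against 347, 339 and 327 CPM, and here the groups were separate (0.35 ± 0.079). Slc38a1 was at 178, 178 and 187 against 161, 174 and 160 CPM, lower in all ER-bound libraries but not called (-0.13; edgeR adjusted p = 0.24).

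Lsg1 siRNA was then compared with scramble siRNA within each fraction, which asks whether the knockdown changed the transporters' transcripts. In whole-cell RNA no member was called and no gene of all those tested (0% called by edgeR). At an unadjusted p under 0.05 were 731 genes, 4.13%, and 2 members, Slc1a1 and Slc1a4. Lsg1 itself, at 136 to 149 CPM with scramble and 83.5 to 114 CPM with its own siRNA, was not called either. A lack of calls here is thus no evidence that the transporters were unchanged. DESeq2 called 5 of all genes and limma-voom called 0, and neither called a member. The members' median log2 fold was 0.014. In bulk libraries such as these, fewer cells of a type and less RNA per cell cannot be told apart between the siRNAs.

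In ER-bound RNA, 5 of 50 members rose with Lsg1 siRNA and none fell. Of all genes tested, 4.01% were called, 2.63% higher and 1.38% lower. Between the siRNAs, 37 of 50 members had a log2 fold above 0, and the median was 0.10, against 0.0086 over all genes. Other membrane protein genes shifted alike. Among other solute carriers outside the Slc25 family, 118 of 161 were above 0, with a median of 0.081, 11 called higher and 1 lower. Among Tmem genes, 152 of 203 were above 0, with a median of 0.076, 15 called higher and 0 lower. In 14 members all Lsg1 values lay above all scramble values, in 1 below. Over all genes these shares were 12.5% and 8.95%. Without ER-bound scramble replicate 1, the median was 0.039, 32 of 50 members were positive, 4 of the 5, all but Slc43a2 (0.12; adjusted p = 0.13), were called and Slc1a4 fell (-0.18; edgeR adjusted p = 0.011).

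Slc7a5 was at 439, 480 and 493 CPM in ER-bound scramble libraries and 553, 559 and 519 CPM with Lsg1 siRNA. The groups did not overlap, and the log2 fold was 0.21 ± 0.040 (edgeR adjusted p = 0.0056), or 0.15 without scramble replicate 1 (adjusted p = 0.013). In whole-cell RNA it was at 347, 355 and 349 against 340, 355 and 365 CPM, with overlap. Slc7a7, its fellow light chain, went from 193, 216 and 237 to 248, 262 and 272 CPM (0.28 ± 0.060; edgeR adjusted p = 0.013), with 138 to 156 against 148 to 161 CPM in whole-cell RNA.

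The lysosomal Slc38a7 rose from 36, 36.6 and 36.4 to 42.0, 40.9 and 40.2 CPM (0.18 ± 0.038; edgeR adjusted p = 0.014), and its ER-bound scramble values were closely alike. Slc43a2 rose from 26.9, 28.9 and 29.0 to 32.0, 31.7 and 31.3 CPM (0.17 ± 0.043; edgeR adjusted p = 0.036), and 9.18% of its exon bases overlap Gm45606 on the other strand. The Slc43a2 call was lost in 16 of 23 alternatives, with adjusted p-values of 0.019 to 0.15. For Slc7a5 the adjusted p-values ranged from 1.6e-04 to 0.057, for Slc7a7 from 1.9e-07 to 0.079 and for Slc38a7 from 0.0076 to 0.096. Leaving out ER-bound Lsg1 replicate 2 ended all 5 calls, leaving out Lsg1 replicate 3 left 2 (Slc7a5 and Slc38a7) and leaving out scramble replicate 2 left 2, Slc7a5 being 1 of them.

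The carriers with the lowest values in scramble replicate 1 were not called. Slc38a4 went from 227, 308 and 316 to 347, 339 and 327 CPM (0.25; edgeR adjusted p = 0.088), or 0.11 without replicate 1. Slc38a2 went from 239, 346 and 361 to 343, 376 and 349 CPM, with overlap (0.18), and its log2 fold without replicate 1 was 0.0059. Slc38a1 went from 0.14 to -0.036. Slc3a2 was 539, 527 and 534 against 559, 562 and 557 CPM, separate but not called (0.068; edgeR adjusted p = 0.13). The summed neural markers were also lower with Lsg1 siRNA in ER-bound RNA, at 91.4 to 97.8 against 110 to 113 CPM, of which Tubb3 made up 84.9 ± 2.71 and 100 ± 1.24 CPM (SD, n = 3). Of the 10 embryonic stem cell markers, 8 had a log2 fold below 0 and 2 fell, Nanog by 0.18 and Dppa5a by 0.11 (edgeR adjusted p = 0.03 and 0.036). The part of these markers in the results was not tested.

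**Figure D4:**
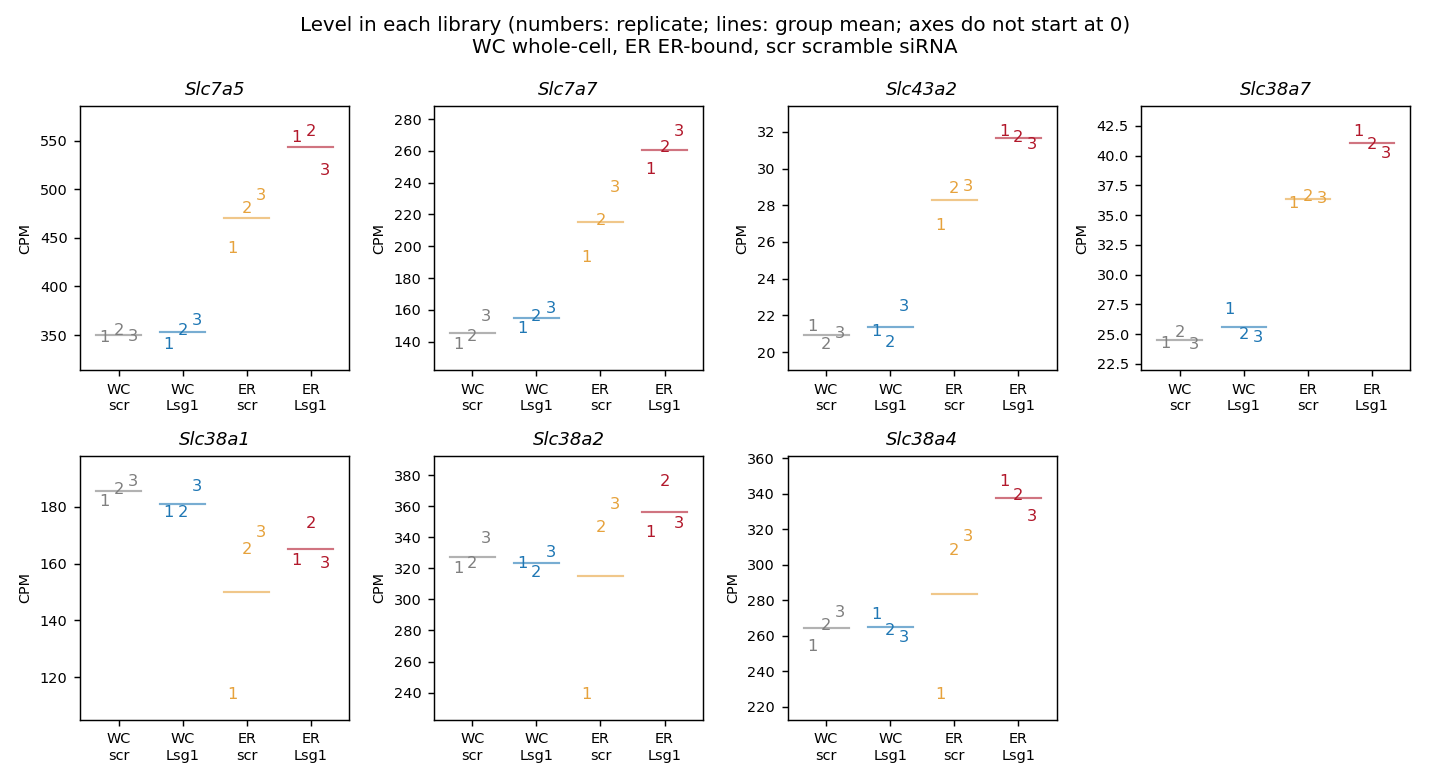
CPM in each library for 4 members that rose in ER-bound RNA with Lsg1 siRNA (Slc7a5, Slc7a7, Slc43a2, Slc38a7) and for Slc38a1, Slc38a2 and Slc38a4; digits are replicates, lines are group means, and the axes do not start at 0. In these 4, all ER-bound Lsg1 values lie above the scramble ones, and in the 3 Slc38 genes scramble replicate 1 lies below replicates 2 and 3.

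The difference between the siRNAs in the ER-bound against whole-cell log2 fold was tested as an interaction. It passed for none of the 50 members, against 4 genes (0.0226%) of all tested by edgeR; 8 members had an unadjusted p under 0.05, as had 6.89% of all genes. DESeq2 and limma-voom also called no member, and with no filter on low counts edgeR called 1, Slc38a4 (adjusted p = 0.025). The members' median difference was 0.083, against 0.0045 over all genes, 0.082 in other solute carriers outside the Slc25 family and 0.062 in Tmem genes. Slc7a5 had a difference of 0.19 (edgeR adjusted p = 0.46) and Slc7a7 of 0.18 (0.71). All 10 Slc38 members had a positive difference, with a median of 0.17, which was 0.036 with 9 positive when ER-bound scramble replicate 1 was left out.

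RNA of the heavy and light chains was compared per kb of exon, which does not measure the amounts of the proteins. The length counts all annotated exons of a gene, so the ratios below depend on the annotation. Slc3a2 was at 102 ± 1.41 CPM per kb (SD, n = 3) in whole-cell scramble RNA and 151 ± 1.8 in ER-bound scramble RNA, and at 103 ± 1.36 and 159 ± 0.753 CPM per kb with Lsg1 siRNA. Its partner light chains Slc7a5, Slc7a6, Slc7a7, Slc7a8, Slc7a10 and Slc7a11 summed to 149 ± 3.14, 203 ± 15.9, 153 ± 5.48 and 239 ± 4.32 CPM per kb in the same order. Slc7a5 made up 59.5% to 64.0% of this sum in each library and Slc7a7 28.6% to 34.9%. The ratio of light chains to heavy chain was 1.45, 1.47 and 1.47 in whole-cell scramble and 1.22, 1.38 and 1.44 in ER-bound scramble RNA. With Lsg1 siRNA it was 1.44, 1.49 and 1.51 in whole-cell and 1.50, 1.53 and 1.49 in ER-bound RNA. ER-bound scramble lay below whole-cell scramble and below ER-bound Lsg1, each with p = 0.1 in an unpaired two-sided exact permutation test. This is the smallest that 3 against 3 unpaired libraries allow. ER-bound and whole-cell libraries of the same number share a lysate, which the test did not take into account. The lowest ratio, 1.22, was that of scramble replicate 1.

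**Figure D5:**
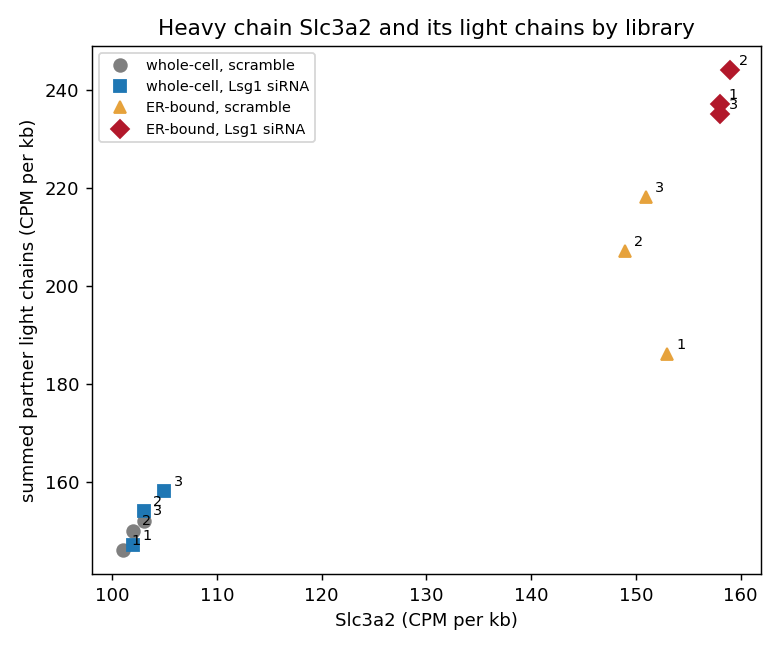
Summed partner light chains against Slc3a2, both in CPM per kb, with 1 symbol per library and its replicate number. ER-bound libraries lie to the right, and ER-bound scramble replicate 1 has the lowest light chain sum of them, 186 CPM per kb.

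Other genes of amino acid transport and sensing were read from lists that hold no member. Of 9 tested amino acid or peptide carriers of other families outside mitochondria, 8 were higher in ER-bound scramble RNA, with a median log2 fold of 0.67, among them the lysosomal cystine exporter Ctns (0.77). Of 11 carriers of mitochondria, 3 were higher and 3 lower. Among 35 genes of amino acid sensing by mTORC1, whose products are cytosolic or sit on the lysosome's surface, 6 were higher and 20 lower, with a median of -0.17; the kinase Mtor was at 124 ± 3.41 CPM in whole-cell and 42.8 ± 10 CPM in ER-bound RNA (-1.53). Of 30 genes of the amino acid response through the kinase Gcn2 and the factor Atf4, 10 were higher and 14 lower, among the latter asparagine synthetase Asns (-0.47). With Lsg1 siRNA in ER-bound RNA, Mfsd12, a cysteine carrier of lysosomes and melanosomes, rose by 0.28 and the mitochondrial Sfxn2 by 0.33, and Phgdh and Got1 fell by 0.15 and 0.11 on the log2 scale. No mTORC1 gene was called in that comparison, and in whole-cell RNA no gene of these 4 lists was called (edgeR).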

How the data were processed

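Raw HTSeq counts per gene were deposited by the authors for 12 libraries. STAR 2.7.9a, HTSeq 0.11.2, DESeq2 and the build GRCm39 are the tools and genome named per the submitters' processing notes. Per the labels' protocols, libraries were poly(A)-selected with a directional kit. The sources used here give neither the strand setting nor the annotation release, so reads of overlapping genes on opposite strands may be mixed. Summary lines were left out: reads outside features made up 2.65% to 5.26%, those with several alignments 6.09% to 8.23% and ambiguous ones 0.970% to 1.16%.

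Symbols, biotypes and exon lengths came from GENCODE M21 (GRCm38), matched by gene ID for 52135 IDs (94.1%, with 99.5% of reads), so no genome coordinates are given. Counts were scaled by TMM, filtered with filterByExpr and tested with edgeR 4.0.16 in R 4.3.3 (quasi-likelihood F-test, 1 mean per group, 8 residual degrees of freedom, prior count 2, biological coefficient of variation 4.42%), with p-values adjusted by Benjamini-Hochberg over 17702 genes and a threshold of 0.05. CPM are TMM-scaled, and the SE is the log2 fold divided by the square root of its F. The fit was tested on simulated data. Alternatives were DESeq2 1.42.0, limma-voom 3.58.1, other scalings and filters, a GC and length offset, replicate blocks and leaving out libraries.

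Same-numbered ER-bound and whole-cell libraries come from 1 lysate; their deviations correlated at 0.00241 to 0.138. Members and lists were chosen with earlier results of these data known. Members with values by library were those called between the siRNAs, the 12 with the highest level per kb and the 5 highest and 5 lowest scramble folds. Slc7a6 and other members with values were added after their values were seen. One member that this rule selects is counted but not reported here. Proteins were translated from GENCODE M21 transcripts, and their sequences are not shown.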

Additional observations from a re-analysis of the deposited data

How the results depend on the processing

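With 3 libraries per group, the called log2 folds of members smallest in size were 0.11 (Slc6a6, scramble) and -0.11 (Slc38a10, Lsg1 siRNA) by edgeR. Members under 1 CPM rest on few reads. The count of members higher in ER-bound RNA stayed within 1.5 times of 29 and 30 under each alternative. The 1 lower member with Lsg1 siRNA, Slc38a10, became a count of 0 with library totals, 3 with no low-count filter, 2 with the replicate block, 2 with the block by culture and 3 with only the groups compared, and ranged from 0 to 3 when 1 library was left out. In ER-bound RNA the 5 risen members became 9 with the replicate block, which added Slc1a3, Slc38a4, Slc6a16 and Slc7a6; there the numbers pair no cultures by label, and the correlations of same-numbered deviations were 0.173, 0.00727 and 0.144. Leaving out 1 library gave 0 to 5 rises and 0 to 1 falls. The interaction called 1 member, Slc38a4, with no low-count filter. The block changed no other count of members. Among the members given by library, reversed scramble folds were Slc38a2 (0.022 with library totals, 0.22 with the GC and length offset), Slc7a1 (0.068 and 0.31), Slc7a6os (0.025 with library totals), Slc38a1 (0.062) and Slc7a11 (0.34 with the offset). Leaving out 1 library gave ranges of -0.18 to 0.10 for Slc38a2, -0.064 to 0.035 for Slc7a1, -0.61 to 0.25 for Slc6a5 and -0.40 to 0.021 for Slc7a11. Other uncalled members also changed sign, among them Slc38a6 (-0.022, then 0.056 with library totals), Slc6a16 (0.084, then -0.086 with the offset) and Slc3a1 (0.093, then -0.029 with the offset), and Slc7a6, Slc7a2, Slc6a3 and Slc6a14 did so when 1 library was left out. Leaving out the 2 libraries rich in the unnamed gene was chosen after seeing the data. The cause of these changes was not tested.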
